A study of Mus musculus with 24 samples.

Results

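The 10 genes described here encode the contractile, calcium-handling and hormone proteins of cardiac muscle: Myh6, Myl7, Myl4, Mybpc3, Actc1, Tnnt2, Tnni3, Ryr2, Sln and Nppa. They were followed in mouse lung because, in the mouse, a sleeve of cardiac muscle continues from the left atrium along the pulmonary veins. A probe set, the group of short probes that Affymetrix arrays use to read a transcript, was a member when its only annotated gene symbol was on this list. That gave 15 probe sets out of 20380 that name 1 gene, and 11 of the 15 passed the limit on low signals described below, at least 1 for each of the 10 genes. Another 2 probe sets are annotated to Myh7 and Myh6 together and lay outside the rule.

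The arrays measured RNA from frozen lung of mice in 6 groups of 4 arrays. Mice breathed filtered air or diesel exhaust (DE) at 500 or 2000 ug/m3, in sessions of 4 h a day on 5 days, and received either saline or 100 ug of the allergen ovalbumin (OVA) on 3 days. The groups are called air_saline, DE500_saline, DE2000_saline, air_OVA, DE500_OVA and DE2000_OVA, with the replicate numbers of the labels. The labels give no strain, age or route of treatment. The study, by its title, asked how diesel exhaust enhances allergic sensitization. All groups shared the exposure schedule, and the saline mice that breathed air were the untreated reference.

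Cardiac muscle contracts when calcium released through the ryanodine receptor binds the troponin complex on actin filaments, which frees sites for myosin heads. Atrial muscle uses its own light chains, Myl7 and Myl4, and it stores the hormone encoded by Nppa and expresses the calcium pump inhibitor sarcolipin (Sln). In the mouse, muscle of the same kind runs along pulmonary veins into the lung, so a lung sample holds more or less of it depending on which part of the organ is taken. In a homogenised lung, fewer cells of a type and less RNA per cell cannot be told apart, and these arrays also cannot tell vein muscle from atrial tissue left on the lung.

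The 3 promoters printed next hold sites that bear the names of muscle factors. The sites are the CArG box bound by serum response factor, the MEF2 site and the MCAT motif (CATTCC) bound by TEAD proteins. The promoters of Tnnt2 and Myh6, which also hold an MCAT motif, are not printed. The sequences come from RefSeq on build GRCm38.p6, which has entries for 9 of the 10 genes and 10 entries in all. Each run gives the 150 bases before the annotated start, 5′ to 3′ on the strand of the gene, with these 3 kinds of site in capitals.
Myl7, the atrial regulatory light chain, chr11:5898783-5898932, minus strand: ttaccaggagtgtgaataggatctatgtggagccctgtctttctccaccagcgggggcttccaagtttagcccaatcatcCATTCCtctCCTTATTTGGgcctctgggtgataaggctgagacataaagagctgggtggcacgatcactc
Actc1, cardiac alpha-actin, chr2:114052876-114053025, minus strand: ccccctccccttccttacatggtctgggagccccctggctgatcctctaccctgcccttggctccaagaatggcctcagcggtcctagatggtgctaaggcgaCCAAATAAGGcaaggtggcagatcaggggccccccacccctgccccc
Mybpc3, cardiac myosin binding protein C, chr2:91117994-91118143, plus strand: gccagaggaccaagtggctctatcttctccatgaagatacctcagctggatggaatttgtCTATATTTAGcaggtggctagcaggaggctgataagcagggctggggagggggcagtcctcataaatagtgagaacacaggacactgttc

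The 250 bases before each start were searched on both strands. A CArG box stood in Actc1, 47 to 38 bases before the start, and in Myl7, 61 to 52 bases before it, which makes 2 of the 10 member entries against 1.47% of all 32851 entries. The MEF2 site stood in Mybpc3 alone among the members, 90 to 81 bases before the start, against 2.92% of all entries. MCAT stood in 3 member entries, those of Myh6, Myl7 and Tnnt2, against 12.6%. The E-box (CANNTG) was in 8 of the 10, against 66.2% of all, and in Mybpc3 the box that begins 80 bases before the start directly follows the MEF2 site. These matches describe letters in a window and were not tested for binding.

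All 10 genes had a signal above the limit, a geometric mean of 138 in MAS5 units. Among the thick filament genes, Myh6, the fast alpha-myosin heavy chain, had a geometric mean signal of 2748 by probe set 1448826_at, with arrays from 1408 to 5161. Myl7 had 4153 (1841 to 6818) and Myl4, the atrial essential light chain, 2731 (1127 to 4244). Mybpc3, which braces the myosin filament, had 412 (295 to 593). Signals of different probe sets do not rank the genes, because probe sets differ in how strongly they bind.

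Among the thin filament genes, Actc1 had a geometric mean signal of 2298 (1036 to 3079.9). Tnnt2, the troponin subunit that ties the complex to tropomyosin, had 1933 by 1424967_x_at (946 to 3554) and 1745 by 1418726_a_at (770.4 to 2779). Tnni3, the inhibitory troponin subunit of heart, had 1212 (541 to 2335). Of the calcium-handling genes, the release channel Ryr2 had 201 (106 to 388) and Sln had 1427 (438 to 2751). Nppa, which encodes atrial natriuretic peptide, had 946 and the widest range, from 103 to 2647.

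The other 4 member probe sets had low signals and were not tested with the rest. These were 1417729_at of Myh6 with a geometric mean of 45.8, 1457126_at of Myl4 with 66.9, 1421126_at of Ryr2 with 59.6 and 1420883_at of Sln with 26.1. They did not follow the brighter probe set of their gene from array to array, with correlations of -0.21, 0.17, -0.10 and -0.14 in that order over 24 arrays after group means were removed. The tested probe sets of Tnnt2 gave 0.90 in the same measure.

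Arrays of the same group differed widely in these genes. The within-group SD of the log2 signal was 1.09 for Nppa, 0.55 for Sln, 0.53 for Tnnt2 (1424967_x_at), 0.49 for Myl7, 0.48 for Tnni3, 0.46 for Myh6, 0.45 for Ryr2, 0.40 for Myl4 and 0.30 for Actc1. The median SD of tested probe sets of like mean signal, within 0.5 log2 units of the member, lay between 0.23 and 0.24 for these genes except Ryr2, where it was 0.35. Mybpc3 was the exception among the members, with an SD of 0.25 against 0.27 at its level.

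Myl7 shows the spread array by array. In air_saline its signals were 5194, 3879, 4490.2 and 5355 in replicates 1 to 4, and in DE500_saline 5116, 3911, 2561 and 4083. In DE2000_saline they were 5676, 1841, 4353 and 6818, so the lowest and the highest of all 24 arrays came from the same group. In air_OVA the signals were 4296, 4420.1, 2563 and 4052, in DE500_OVA 6546, 4685, 3180.0 and 2967, and in DE2000_OVA 4149, 4062, 3732 and 6129. Every group overlapped every other.

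The group means of Myl7 on the log2 scale, from high to low, were 12.20 ± 0.21 in air_saline, 12.11 ± 0.32 in DE2000_OVA, 12.04 ± 0.84 in DE2000_saline, 12.01 ± 0.53 in DE500_OVA, 11.89 ± 0.42 in DE500_saline and 11.87 ± 0.37 in air_OVA (SD, n = 4). No 2 neighbours in that order differed by as much as the SD of either group.

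**Figure D1:**
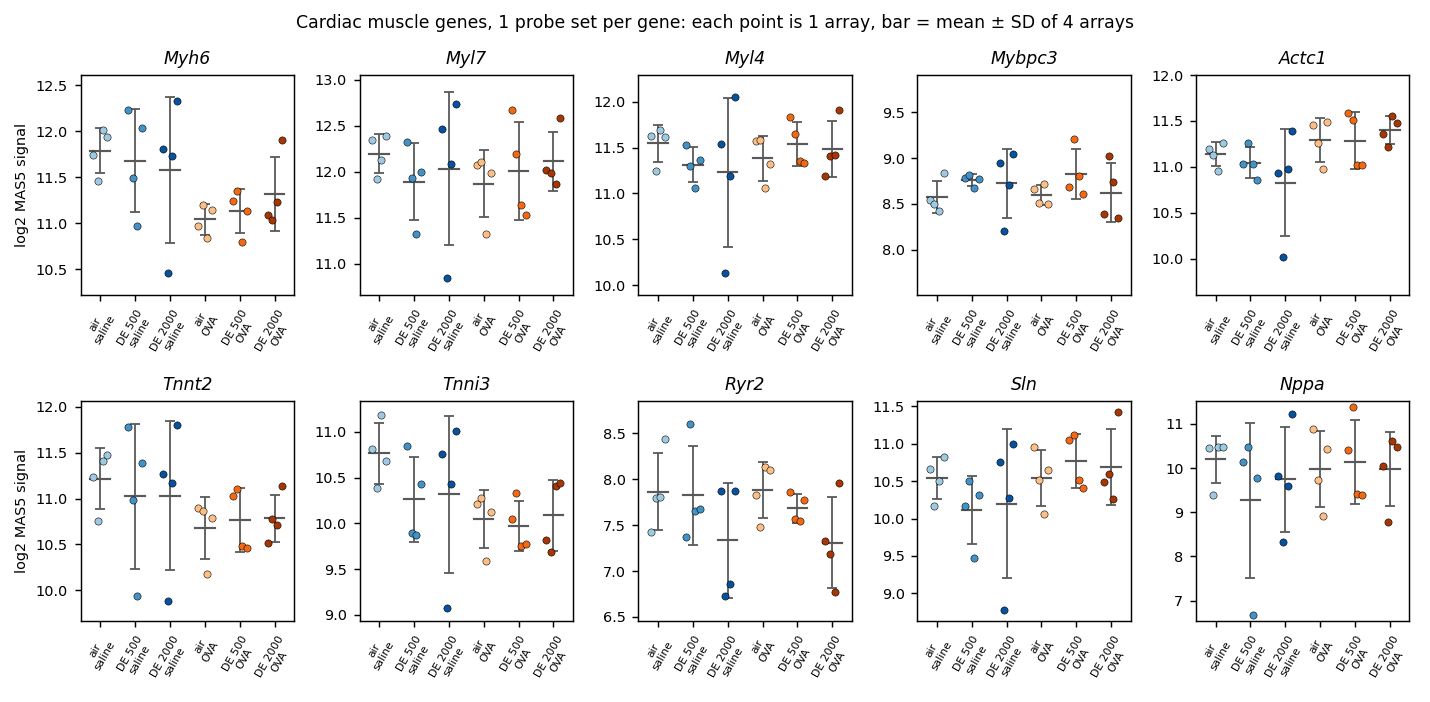
log2 MAS5 signal of the 10 genes, 1 probe set per gene (the brightest), in the 6 groups; each point is 1 array and the bars are the mean ± SD of 4 arrays. The groups overlap in most panels, and the DE2000_saline group holds the lowest array of all 24 for every gene but Nppa.

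The array labelled DE2000_saline replicate 2 was the lowest of all 24 for 9 of the 10 genes, and DE2000_saline replicate 4 was the highest of its group for 10 of 10 and the highest of all arrays for 4. Over the 10 genes the median deviation from the group mean was -1.13 log2 units in replicate 2 and 0.73 in replicate 4. The signals of replicates 2 and 4 were 321 and 2406 for Nppa, a 7.49-fold difference, 438 and 2040.4 for Sln (4.66-fold) and 541 and 2056 for Tnni3 (3.80-fold). Myl4, Tnnt2, Myl7 and Myh6 differed by 3.77, 3.76, 3.70 and 3.67-fold, while Actc1 differed by 2.59, Ryr2 by 2.21 and Mybpc3 by 1.79-fold.

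The median over all tested probe sets was 0.993-fold between the same arrays. The share of tested probe sets with a larger log2 difference than the member ran from 0.00737% for Nppa to 2.51% for Mybpc3. The 2 arrays were picked because the members lay apart in them, so these shares are a description and no test. Both arrays had a like 3′/5′ ratio, a measure of RNA quality explained below, of 1.61 and 1.55 log2 units. Smaller shifts of the whole set were seen elsewhere: all 10 genes lay below their group mean in air_saline replicate 2 (median deviation -0.31), DE500_saline replicate 3 (-0.48) and DE500_OVA replicate 3 (-0.26). In air_OVA replicate 3 the figure was 8 of 10 (-0.39), with Ryr2 and Mybpc3 above the mean. Upward, all 10 genes lay above their group mean in DE2000_saline replicate 1 (0.27). In DE2000_OVA replicate 4, 9 of 10 did (0.45), as in DE500_OVA replicates 1 and 2 (0.26 and 0.28) and air_saline replicate 4 (0.22).

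**Figure D2:**
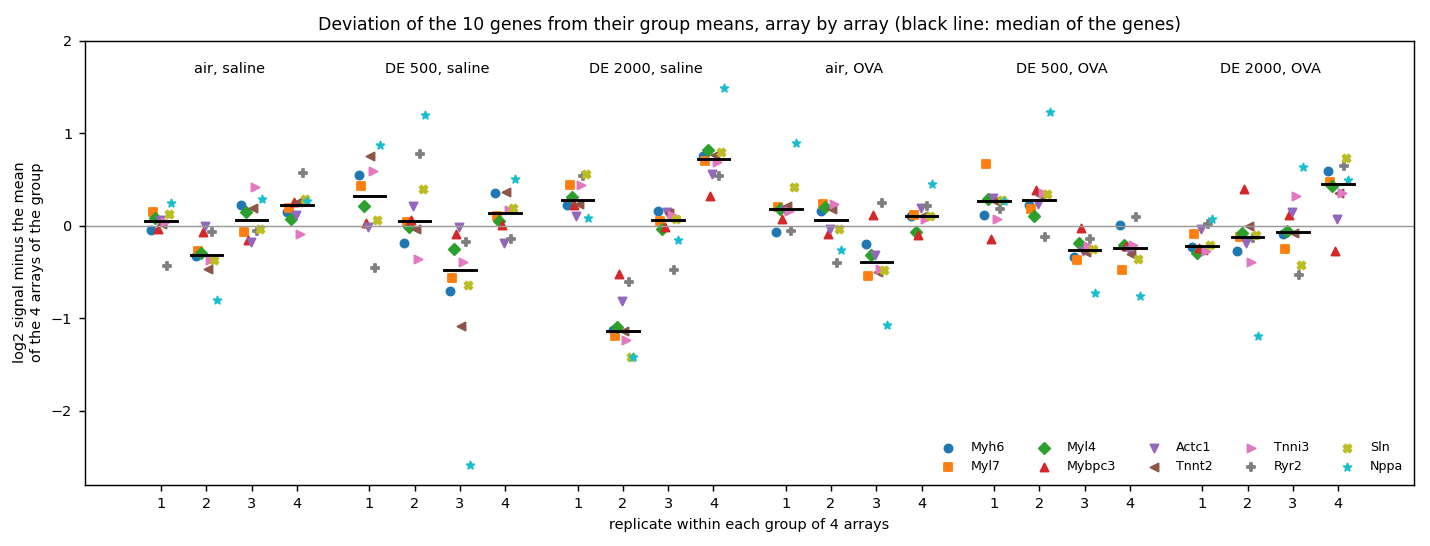
Deviation of each gene's log2 signal from the mean of the 4 arrays of its group, for each of the 24 arrays; symbols are the 10 genes and the black line is their median. The genes move as a block in several arrays, most of all in DE2000_saline replicate 2 (median -1.13) and replicate 4 (median 0.73), and Nppa lies farthest out in DE500_saline replicate 3.

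This common movement was measured as the correlation of log2 signals over the 24 arrays after the mean of each group was removed, with 1 probe set per gene. Of the 45 pairs of genes, 29 passed by Pearson's r and 26 by Spearman's rho in a two-sided permutation test within groups (100000 resamples, Benjamini-Hochberg adjusted p under 0.05 over the 45 pairs). The median r was 0.70, from 0.16 to 0.93. Myh6 and Tnnt2 had the highest r, 0.93 (rho 0.90, permutation p = 1e-05, the smallest the resamples can give, adjusted p = 9.0e-05), and r was 0.85 without the 2 arrays farthest from the median of Myh6. For the atrial light chains Myl7 and Myl4 r was 0.92 (rho 0.93, permutation p = 1e-05, adjusted p = 9.0e-05) and 0.86 in the same check.

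Sln and Nppa, which do not belong to the sarcomere, moved with the filament genes: r was 0.92 between Sln and Myl7, 0.91 between Sln and Myl4, and 0.83 between Nppa and Tnnt2. Mybpc3 passed with 0 of its 9 partners in the permutation test and 0 by Spearman's rho, with 1 at an unadjusted p under 0.05, and its highest r was 0.51, with Actc1. Ryr2 passed with 1 of 9, Sln (r = 0.60, rho = 0.56, permutation p = 0.0129, adjusted p = 0.0211). Of the 28 pairs among the other 8 genes, all passed by r and 25 by rho; these 8 were picked out after their values were seen.

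The figures rest in part on the arrays that stood apart. Without DE2000_saline replicate 2, 24 pairs passed and the median r was 0.56, without replicate 4 of that group the values were 25 and 0.65, and without both they were 21 and 0.53. Each pair was also recomputed without the 2 arrays farthest from the median of its first gene, which gave a median r of 0.53 over the 45 pairs. Myh6 with Actc1 fell in this check from r = 0.63 to 0.33 and Actc1 with Tnni3 from 0.69 to 0.31, so these relations rest on the outer arrays.

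The median r over the 45 pairs was 0.81 within the 12 saline arrays and 0.63 within the 12 OVA arrays. Mybpc3 had a median r of 0.76 with its 9 partners in saline and -0.10 in OVA. These differences between the arms were not tested, and DE2000_saline replicates 2 and 4 are both saline arrays.

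**Figure D3:**
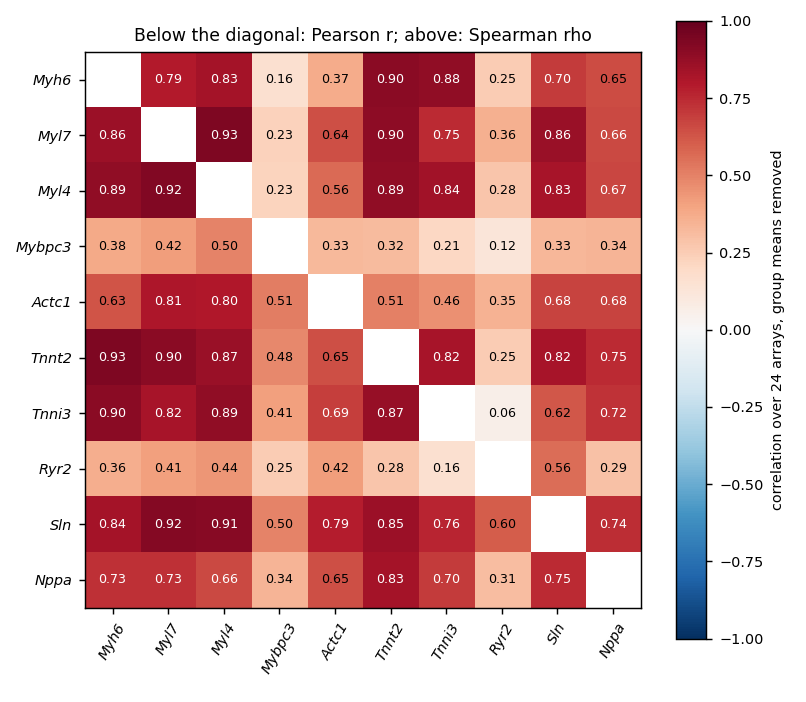
Correlation between the genes over 24 arrays after group means were removed, with Pearson's r below the diagonal and Spearman's rho above it. The rows of Mybpc3 and Ryr2 are pale (r of at most 0.60), while Myh6, Myl7, Myl4, Tnnt2, Tnni3 and Sln form a block with r between 0.76 and 0.93.

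The same measure against the mean of the 10 genes, each scaled by its SD, was used to find the genes whose pattern was most like theirs. It is given as a description, with no test, and all points come from the same 24 arrays. Over 8305 other genes the median r was 0.03, and 41 genes (0.494%) had an r above 0.7. The 15 highest were Mb, the oxygen store myoglobin (0.91), Pln, the calcium pump inhibitor phospholamban (0.91), the titin cap Tcap (0.91), the calcium-binding troponin Tnnc1 (0.90), the muscle creatine kinase Ckm (0.88), the Z-disc protein Csrp3 (0.87) and the small muscle protein Smpx (0.87), then Yif1a (0.82), Poldip3 (0.81), the cytochrome c oxidase subunit Cox7a1 (0.81), Ltf (0.81), Pde4dip (0.80), Ankrd1 (0.80), the Z-disc protein Ldb3 (0.79) and S1pr4 (0.79).

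Of these 15 genes, 10 stand on the lists of striated muscle genes used here. The other 5 are Yif1a, a membrane traffic protein, Poldip3, Ltf, the iron-binding lactoferrin of neutrophil granules and glands, Pde4dip and S1pr4, a receptor of blood cells. Myl7, Myl4 and Sln, each set against the mean of the other 9 members, gave 0.92, 0.94 and 0.94, and Ryr2 and Mybpc3 gave 0.41 and 0.49.

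The list of other cardiac sarcomere genes had 16 tested of 19, and their median r with the members was 0.67, with 8 above 0.7. Its 4 brightest were the chaperone Cryab (-0.09), the tropomyosin Tpm1 (0.17), Tcap (0.91) and Tnnc1 (0.90). Tpm1 and Cryab are also expressed by many other cells. Muscle energy genes had 10 tested of 12 with a median r of 0.73 and 7 above 0.7, among them Cox6a2 (0.75), Mb, Ckm and the fatty acid carrier Fabp3 (0.73).

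Calcium-handling and conduction genes had 10 tested of 15 and a median r of 0.16, with 2 above 0.7, Pln and the calcium store protein Casq2 (0.73). The calcium pump Atp2a2 gave 0.44, the gap junction gene Gja1 -0.07 and the calcium-binding Hrc 0.60. Heart transcription factors had 7 tested of 14 and a median r of -0.02, with 0 above 0.7: Mef2a gave -0.22, Tbx3 -0.20, Gata6 -0.43 and Tbx5 0.18, and Nkx2-5, the factor that marks heart muscle, 0.13. Over the 4 comparisons with exhaust and both interactions, limma called 0 genes of any of the 11 lists used here. Among all tested probe sets it called from 0% to 0.147% in these comparisons, so the count says little about the lists.

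The markers of other tissues were followed in the same way. Of 5 ventricular markers 1 was tested, Myh7 (r = -0.02), while the other 4 had geometric mean signals below the limit of 138. The ventricular light chain Myl3 had a signal of 116 (19.1 to 199) and followed the members, with r = 0.76, and the light chain Myl2 had 59.9 and r = 0.33. The transcription factors Irx4 and Hey2 had 26.8 and 24.5, with r = 0.20 and -0.13. Of 16 skeletal muscle markers on the array 3 were tested, Casq1 (0.30), Myoz1 (0.03) and Atp2a1 (0.51). Below the limit, the defining Acta1 had a signal of 70.2 (r = 0.56). Myh4, Myh1 and Tnnc2 had 13.5, 17.5 and 9.66 (r = 0.34, 0.30 and 0.19). Myh2, Tnnt3, Myl1 and Tnni2 had 55.5, 82.1, 100 and 25.0 (r = 0.63, 0.49, 0.41 and 0.35). The rest were Mylpf, Ryr1, Actn3, Myh8 and Pvalb, with 21.1, 56.4, 17.5, 22.3 and 110 (r = 0.11, 0.09, 0.08, -0.20 and -0.24).

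Smooth muscle markers, 9 tested of 10, had a median r of 0.02: Acta2 gave 0.53, Tagln 0.52, Mylk -0.43 and Myl9 0.02. Their summed signal ran from 15735 to 21860 in DE2000_saline, where the members moved most, and from 17187 to 21672 in air_saline. Endothelial markers (7 of 7) had a median of -0.12 and lung epithelial markers (6 of 6) of -0.05, with Efnb2 at -0.12, Vwf at -0.14, Nr2f2 at -0.25 and Hey1 at 0.41, and with Sftpc at -0.00, Scgb1a1 at -0.06, Sftpa1 at -0.19 and Sftpb at -0.13.

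Fat lies around the heart and vessels, and mesothelium covers the lung. Fat markers (4 tested of 9) had a median r of 0.41, with Fabp4 at 0.49, Retn at 0.38, Lipe at -0.22 and Adipoq at 0.44. Their sum ran from 1420.2 to 5239.8 in DE2000_saline, where the sum of the members ran from 8060 to 29724. In DE500_OVA the fat sum ran more widely, from 2403 to 7288, while that of the members ran from 14711 to 22957. Mesothelial markers, 3 tested of 6, had the lowest median of the 11 lists, -0.55: Upk3b (-0.64) and Msln (-0.55) ran against the members, and Krt19, which airway epithelium also expresses, gave 0.40. The part of both tissues in the common movement was not tested.

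**Figure D4:**
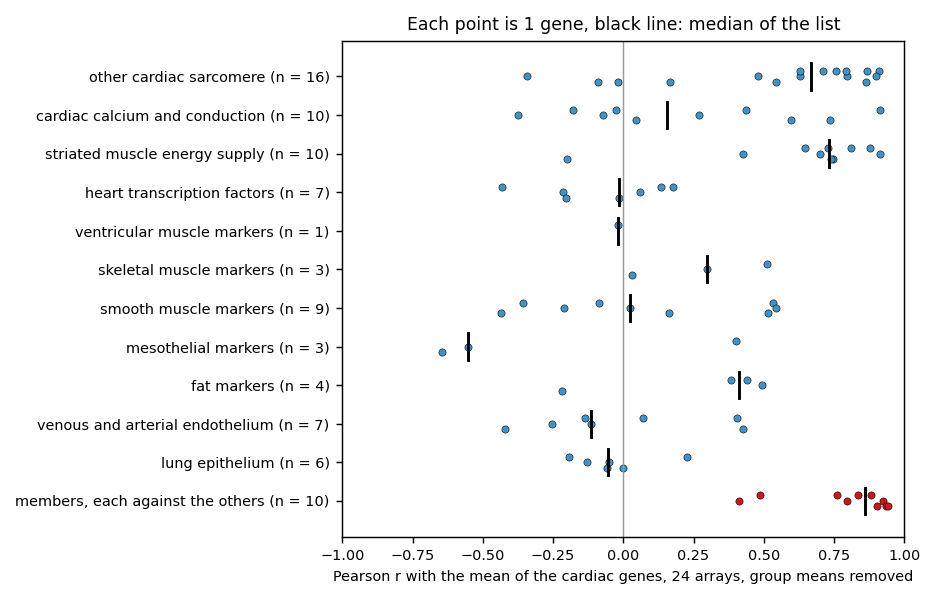
Pearson r of each tested gene's log2 signal with the mean of the cardiac genes over 24 arrays, group means removed, by gene list; points are genes and the black lines are list medians. Sarcomere and energy genes sit to the right (medians 0.67 and 0.73) with the members themselves, and the other lists have medians between -0.55 and 0.41.

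Exhaust against air was compared within each arm with limma, fitted on all 13575 tested probe sets, and a probe set was called at an adjusted p under 0.05. In saline, 0 of the 11 member probe sets were called at 2000 ug/m3, where 0.147% of all tested probe sets were called, and 0 at 500 ug/m3, where 0.00737% were. With OVA, 0 of 11 were called at 2000 ug/m3, against 0.0221%, and 0 at 500 ug/m3, against 0%. At an unadjusted p under 0.05 limma also gave 0 member probe sets in each of the 4 comparisons, where 807 (5.94%), 1073 (7.90%), 1103 (8.13%) and 125 (0.921%) of all tested probe sets passed that limit, in the same order. The comparisons at the 2 concentrations share their air arrays.

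The log2 differences of the members in saline lay below 0 for 10 of 11 probe sets at each concentration, with a median of -0.31 at 2000 and -0.23 at 500 ug/m3 and a median SE of 0.30. The direction at 2000 ug/m3 rested on 1 array: without DE2000_saline replicate 2, 8 of 11 lay above 0 with a median of 0.08, among them Mybpc3 (0.32 ± 0.17), Tnnt2 (0.19 ± 0.31 by 1424967_x_at), Myh6 (0.17 ± 0.25) and Sln (0.13 ± 0.28, SE). At 500 ug/m3 the median was -0.08, with 7 of 11 below 0, without DE500_saline replicate 3. With OVA, 9 and 8 of 11 lay above 0, with medians of 0.10 and 0.09. At 2000 ug/m3 with OVA 4 of 11 lay above 0 without DE2000_OVA replicate 4 (median -0.04) or air_OVA replicate 3 (-0.02). At 500 ug/m3 with OVA the counts above 0 were 4 without air_OVA replicate 3 (median -0.08) and 5 without DE500_OVA replicate 1 (-0.00) or replicate 2 (-0.02). Over all tested probe sets the medians of the 4 comparisons were -0.01, -0.01, -0.04 and -0.00. The members move together from array to array, so their directions are not separate observations.

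Myl7 gave a fold of 0.894 at 2000 ug/m3 in saline, with a 95% interval from 0.570 to 1.40, and 0.811 (0.516 to 1.27) at 500 ug/m3. Without DE2000_saline replicate 2 the log2 difference of Myl7 at 2000 ug/m3 turned from -0.16 ± 0.31 to 0.24 ± 0.27 (SE). With OVA the folds were 1.18 (0.753 to 1.86) and 1.10 (0.701 to 1.73), and the second turned to -0.04 on the log2 scale without air_OVA replicate 3 and to -0.08 without DE500_OVA replicate 1. The intervals reach from 0.516 to 1.86, well beyond the folds themselves, so they allow larger changes in either direction.

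Nppa had signals of 1394, 673, 1433 and 1418 in air_saline and 1131, 1415, 103 and 876 in DE500_saline, where replicate 3 lay far below the others. The log2 difference was -0.93 ± 0.69, a fold of 0.524 (0.196 to 1.40, limma adjusted p = 0.82), and -0.07 without that array. Ryr2 had the lowest values at 2000 ug/m3, -0.53 ± 0.30 in saline (limma adjusted p = 0.96) and -0.57 ± 0.30 with OVA (limma adjusted p = 0.64). Its signals were 234, 106, 116 and 234 in DE2000_saline and 172, 222, 223 and 347 in air_saline, so the groups overlapped. With OVA they were 161, 145, 109 and 249 at 2000 ug/m3 and 227, 178, 281 and 274 in air, with 1 array of the exposed group among the air values.

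OVA was compared with saline in each exposure and over all 3. In air 0 of 11 member probe sets were called while 14.8% of all tested probe sets were, at 500 ug/m3 0 against 12.5%, at 2000 ug/m3 0 against 18.1%, and averaged over the exposures 2 of 11 against 46.3%. At an unadjusted p under 0.05 limma gave 2, 0, 1 and 3 member probe sets in the same order, where 32.5%, 31.8%, 32.0% and 53.0% of all tested probe sets passed that limit. The share of called members was below the share of all probe sets in each of these comparisons; whether it differed was not tested.

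Myh6 fell and Actc1 rose with OVA, averaged over the exposures, and both calls were lost when RNA quality entered the model, as given below. The signal of Myh6 (1448826_at) ran from 1408 to 5161 with a median of 3505 in the 12 saline arrays and from 1775 to 3843 with a median of 2261 in the 12 OVA arrays. The ranges overlapped, and the lowest array of all was a saline array. Its log2 difference was -0.52 ± 0.17, a fold of 0.696 (0.545 to 0.889, limma adjusted p = 0.0155). In air alone, all 4 saline arrays (2824 to 4142) lay above all 4 OVA arrays (1832 to 2357), with a log2 difference of -0.75 ± 0.30 (limma adjusted p = 0.0837). This was not a call, while 14.8% of all tested probe sets were called in air. Tnni3 also separated in air, with 1343 to 2335 in saline and 767 to 1243 with OVA (-0.72 ± 0.31, limma adjusted p = 0.11). The probe set 1448554_s_at, annotated to Myh7 and Myh6 together, did so with 1326 to 2059 and 1091 to 1190. How many of all tested probe sets separated in this way was not counted.

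Actc1 ran from 1036 to 2681 with a median of 2101 in saline and from 2013 to 3079.9 with a median of 2723 with OVA. Its log2 difference was 0.32 ± 0.12, a fold of 1.25 (1.06 to 1.48, limma adjusted p = 0.0283). At 2000 ug/m3 its difference was 0.57 ± 0.20 (limma adjusted p = 0.0532). This value rested on the extreme arrays of DE2000_saline: it became a call without replicate 4 (0.76 ± 0.20, limma adjusted p = 0.0157) and was 0.30 ± 0.16 (limma adjusted p = 0.22) without replicate 2, the lowest Actc1 array of all.

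The other genes did not pass the averaged comparison. Tnni3 gave -0.41 ± 0.18 (limma adjusted p = 0.0641), Sln 0.39 ± 0.20, Tnnt2 -0.35 ± 0.20 by 1424967_x_at and -0.12 ± 0.17 by 1418726_a_at, and Nppa 0.30 ± 0.40. Myl4 gave 0.10 ± 0.15, Myl7 -0.04 ± 0.18, Ryr2 -0.05 ± 0.18 and Mybpc3 -0.00 ± 0.10. The median of the 11 was -0.04, with -0.01 over all tested probe sets. The filament genes among the members had values on both sides of 0.

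RNA quality differed between the arms in these arrays. The array carries probe sets at the 3′ and 5′ ends of Gapdh and actin, and their ratio rises when the 5′ parts of transcripts are under-represented. The mean log2 ratio was 1.84 ± 1.28 in saline and 0.21 ± 0.58 with OVA (SD, n = 12), and the log2 signal of a B1 repeat control was 12.98 ± 0.53 and 11.55 ± 0.46. The only OVA array with a ratio above 1 was DE2000_OVA replicate 4 (2.02), and it had the highest Myh6 signal of the OVA arrays, 3843. The saline arrays with the lowest ratios, DE500_saline replicates 2 and 3 (0.33 and 0.10), had Myh6 signals of 2889 and 2013. The first of these lay above air_saline replicate 2, with 2824 at a ratio of 0.98. DE2000_saline replicates 2 and 4 had the lowest and the highest Myh6 signal of all arrays, 1408 and 5161, at like ratios of 1.61 and 1.55. These arrays are examples, and RNA quality as a cause of the Myh6 difference was not tested.

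Within groups, Myh6 correlated with the ratio at r = 0.59 (rho = 0.60, permutation p = 0.00839, adjusted p = 0.0363 over the 10 genes), and r was 0.45 without the 2 arrays farthest from the median ratio. Tnnt2, Tnni3 and Myl4 also passed (r = 0.56, 0.52 and 0.32, adjusted p = 0.0363 each by permutation), and by rho Myh6, Tnni3 and Myl4 did. Tnnt2 fell to 0.31 without those 2 arrays. Actc1 gave -0.14 and Mybpc3 -0.13. With the B1 signal 0 of 10 genes passed after adjustment, and 3 had an unadjusted permutation p under 0.05.

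When the 3′/5′ ratio entered the model, limma called 0 member probe sets for OVA averaged over the exposures. Among all 13575 tested probe sets the calls fell from 6284 to 1917 in that fit, so most calls on the array were lost with it. Myh6 was then at -0.11 ± 0.18 (limma adjusted p = 0.77) and Actc1 at 0.26 ± 0.15 (limma adjusted p = 0.29). With the B1 signal as covariate Myh6 turned to 0.17 ± 0.26 and Actc1 was at 0.17 ± 0.21. Both quantities differ between the arms, so the fits with them have wider errors. The call of Actc1 was also lost without air_OVA replicate 4, DE500_OVA replicate 1 or 2 or DE500_saline replicate 4 (0.29 to 0.30, limma adjusted p from 0.0502 to 0.0536) and under median scaling (0.25, limma adjusted p = 0.11). Without DE2000_saline replicate 2 or DE500_saline replicate 3, Tnni3 (-0.55 and -0.46) and Tnnt2 by 1424967_x_at (-0.47 and -0.47) were called too, 4 in all.

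**Figure D5:**
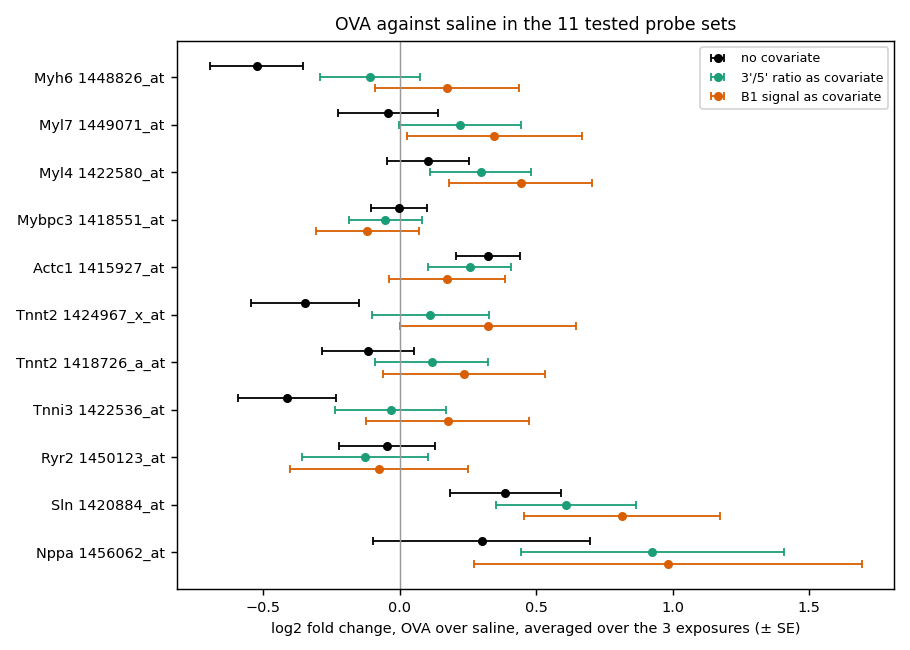
log2 fold change of OVA over saline, averaged over the 3 exposures, for the 11 tested member probe sets in the limma fit without a covariate (black) and with the 3′/5′ ratio (green) or the B1 signal (orange) as covariate; bars are SE. Myh6 moves from -0.52 to -0.11 and 0.17, and Actc1 from 0.32 to 0.26 and 0.17.

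The probe sets of the myosin heavy chains did not move alike. The dim probe set of Myh6, 1417729_at, was at 4.96 ± 0.98 log2 units in saline and 6.07 ± 1.28 with OVA (SD, n = 12), opposite in direction to 1448826_at, and gave 1.10 ± 0.41 (limma adjusted p = 0.0434) in a fit with no limit on low signals. The tested probe set that names Myh7 alone fell with OVA by 0.60 ± 0.13 (limma adjusted p = 0.00073). Of the probe sets that name Myh7 and Myh6 together, 1448554_s_at was at 10.65 ± 0.42 in saline and 10.12 ± 0.14 with OVA, and the dim 1448827_s_at at 5.46 ± 1.23 and 6.89 ± 1.54. Over the 24 arrays with group means removed, 1448826_at had r = 0.78 with 1448554_s_at, and the dim pair had r = 0.74 with each other. The sequences of the probes were not used here, so where each probe set lies on the transcripts is not given.

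The lists of related genes showed the same mixture for OVA averaged over the exposures. Of 16 tested sarcomere genes 3 rose and 2 fell (median -0.05). Ttn, the giant spring protein titin, fell by 1.08 ± 0.19 (limma adjusted p = 0.00011) and Des, the muscle intermediate filament desmin, by 0.60 ± 0.13 (limma adjusted p = 0.00087), and both had r = 0.63 with the members. Tpm1 (0.87 ± 0.17, limma adjusted p = 0.0003), Nebl (0.83 ± 0.25) and Hspb7 (0.76 ± 0.12) rose, with r of 0.17, -0.34 and -0.02, while Tcap (-0.16 ± 0.15) and Tnnc1 (-0.33 ± 0.16) did not pass. Of 10 calcium and conduction genes 4 rose and 1 fell (median 0.04), with Atp2a2 at 0.43 ± 0.09 and Pln at 0.57 ± 0.13 among those that rose. Of 10 energy genes 1 rose and 1 fell (median 0.02), and Mb gave 0.12 ± 0.27. Of 7 transcription factors 3 rose and 0 fell (median 0.11), which were Mef2a, Tbx3 and Gata6 (0.61 ± 0.14, 0.52 ± 0.09 and 0.41 ± 0.10). These counts stand beside 46.3% of all tested probe sets and the same difference in RNA quality.

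Whether OVA changed the response to exhaust was read from the interaction. For 2000 ug/m3, 0 of 11 member probe sets and 0% of all tested ones were called by limma, with 0 and 829 at an unadjusted p under 0.05. For 500 ug/m3 the counts were 0 and 0%, with 0 and 419. The median interaction of the members was 0.41 at 2000 and 0.30 at 500 ug/m3 with a median SE of 0.43. For Myl7 it was 0.40 ± 0.44 and 0.44 ± 0.44 and for Nppa 0.45 ± 0.97 and 1.09 ± 0.97.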

How the data were processed

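RNA from frozen lung was hybridised to 24 Affymetrix expression arrays. The authors deposited a linear MAS5 intensity for each probe set, per the submitters' processing notes, which name no version. Array medians lay between 182 and 243. After 64 control probe sets were removed, 22626 were kept, of which 20380 name 1 gene by the platform annotation, 691 several and 1555 none. Intensities were taken to log2 without a pseudocount. Probe sets with a mean above the 40th percentile (13575) were tested in limma 3.58.1 (R 4.3.3) with 1 mean per group on all arrays, eBayes with trend, two-sided, and Benjamini-Hochberg adjustment over all tested probe sets in each of 10 comparisons.

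Where several probe sets name a gene, the brightest spoke for it in correlations. Correlations used SciPy 1.17.1 and NumPy 2.4.6, with group means removed and permutation within groups. Both procedures were tested on simulated data. Every member was named, as were the 4 brightest tested genes of each of 11 lists (a few further list genes were named after their values were seen) and the 15 genes most like the members. The members and lists were chosen with earlier results of these data known. Same-numbered arrays of different groups had a mean residual correlation of 0.03 (from -0.43 to 0.59 over 60 pairs) and were not treated as pairs. The labels do not say that replicates are separate animals, so p-values measure the spread between these samples, which may be technical. Arrays give no counts, and their number limits the precision. Alternatives covered scaling, the limit on low signals, a pseudocount of 50, array weights, the trend, the groups fitted, RNA quality covariates and each array left out.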

Additional observations from a re-analysis of the deposited data

Results flagged for a closer look

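In 66 groups of 4 arrays (11 tested member probe sets in 6 groups), 4 had an array whose gap to its nearest neighbour, as a share of the range of the group, was above the 95% limit of Dixon's test, which chance passes in about 5% of groups. The log2 signal was the measure, and the array was the lowest of its group each time. For Nppa the array was air_saline replicate 2, with a share of 0.964, at a signal of 673 against 1394 to 1433 in the other 3 arrays. For Myl4 it was the same array, with 0.837, at 2428 against 3146 to 3310. For Myl7 it was air_OVA replicate 3, with 0.840, at 2563 against 4052 to 4420. For Tnnt2 (1424967_x_at) it was again air_OVA replicate 3, with 0.844, at 1159 against 1765 to 1908. The pairs of flags fell on the same arrays, and the genes move together from array to array, so they are not separate events. DE2000_saline replicate 2, the lowest array for 9 genes, passed this limit for none of them.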

How the results depend on the processing

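The members' count of 0 in the 4 comparisons with exhaust, in both interactions and for OVA at 500 ug/m3 was the same under every alternative run. For OVA in air the 0 became 1 with array weights and with the 3 arrays apart in 3′/5′ ratio left out (DE500_saline replicates 1 and 4 and DE2000_OVA replicate 4), and 2 when only the groups compared were fitted. For OVA at 2000 ug/m3 it became 1 with the limit at the 60th percentile, and leaving out 1 array gave 0 to 1. For OVA averaged, the 2 became 0 with the 3′/5′ covariate, 0 with B1, 0 with both, 1 without the 3 arrays, and 1 to 4 with each array left out. Over all alternatives other than single arrays left out, the members' count ran from 0 to 3. Among all tested probe sets, the calls for OVA averaged fell from 6284 to 1917 with the 3′/5′ covariate and to 229 with both covariates. The replicate block, with the replicate number in the design, changed no call (2 for OVA averaged, Myh6 -0.52). The pairs called, 29, became 10 with the mean over the probe sets of a gene, which brings in the dim probe sets, and 24 to 31 with each array left out. Over the other alternatives the pairs called ran from 10 to 36. Alternatives with the 3 arrays left out, with both covariates and without both extreme arrays were chosen after seeing the data. The iteration that sets the array weights stopped before its convergence tolerance, so each value given here with array weights is provisional.

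Signs turned as follows for OVA averaged, none of them called. With the 3′/5′ covariate, Myl7 was at 0.22 and Tnnt2 at 0.11 (1424967_x_at) and 0.12. With B1, Myh6 was at 0.17, Myl7 at 0.35, Tnnt2 at 0.32 and 0.24 and Tnni3 at 0.18. With both, Myl7 was at 0.083, Tnnt2 (1418726_a_at) at 0.018, Ryr2 at 0.19 and Nppa at -0.14. Myl7 was at 0.0053 under quantile normalization. Mybpc3 was at 0.002 with array weights and 0.033 without the 3 arrays. With 1 array left out, Myl7 ran from -0.17 to 0.035, Myl4 from -0.017 to 0.20, Mybpc3 from -0.061 to 0.032 and Ryr2 from -0.12 to 0.039. For exhaust in saline, Myl7 ran from -0.39 to 0.24 at 2000 ug/m3 and Ryr2 from -0.30 to 0.15 at 500 ug/m3, with 0.017 under both covariates and 0.26 without the 3 arrays. With OVA, Myl7 at 500 ug/m3 ran from -0.084 to 0.30. The cause was not tested.

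Over all tested probe sets, calls for exhaust at 2000 ug/m3 in saline ran from 4 to 106 with 1 array left out and from 12 to 138 otherwise (20 as reported; 138 with array weights), at 500 ug/m3 from 0 to 101 and 0 to 1283 (1), with OVA at 2000 ug/m3 from 1 to 7 and 0 to 974 (3). For OVA they ran from 450 to 1958 and 28 to 3976 in air (2004), 361 to 3508 and 48 to 2766 at 500 (1693), 1731 to 3363 and 38 to 4418 at 2000 ug/m3 (2454), and 5644 to 6833 and 229 to 7041 averaged (6284). Interactions ran from 0 to 64 and 0 to 181 at 2000, and 0 to 10 and 0 to 30 at 500 ug/m3. The 4 dim member probe sets are limited by their signal, with geometric means below 67.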
